A study of Sus scrofa with 6 samples.

Results

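The genes described here are GPM6A, SATB1, FABP7, ZIC2, NCAM1, NES, PAX6, OTX2, TUBB3 and DCX, 10 of the 18007 genes in the expression table. They are known from the developing nervous system and were taken by gene name, with results on the difference between porcine embryonic fibroblasts (PEFs) and porcine induced pluripotent stem cells (piPSCs) already known. Their own difference is therefore given as a description without a test. Of the members, 9 were found by gene name, and OTX2 is listed only under its identifier (ENSSSCG00000005063) and was named through a table of identifiers. The set was proposed as genes raised in piPSCs, but that label fitted only part of it: the piPSC values lay above all PEF values for 4 members, below them for 1 and among them for 5. Over the 12428 genes that passed a filter on low values, 37.3% lay above and 26.8% below without overlap. That filter left out NCAM1, OTX2 and DCX, and the counts of members are a description.

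The PEF lines PEF5, PEF7 and PEF8 were fibroblasts grown from the ear tips of embryos at embryonic day 90, out of a Meishan sow by a Large White boar (Longwhite in the labels), and are the cells before transduction. The lines piPSC5, piPSC7 and piPSC8 each came from the fibroblasts that bear its number, by way of lentiviral Oct4, Sox2, Klf4 and c-Myc under a doxycycline-inducible promoter and the M2rtTA activator, and their colonies grew on mouse embryonic fibroblast feeders. One poly-A library per line was read, so each group has 3 libraries and no line has replicates. Expression is given as FPKM, fragments scaled by the length of the gene and the total of the library, which allows levels of different genes to be compared.

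The fragments behind each value could be recovered, and the libraries held between 11010629 and 17836510 of them. The study describes its fibroblast lines as male, but the Y-linked gene DDX3Y had 0 fragments in the 4 libraries of lines 5 and 7, and 3439 and 4207 in PEF8 and piPSC8, so results are also given without line 8. The fibroblast label of the PEFs matched its markers: the 14 markers summed to between 5125 and 7281 FPKM in PEFs and to between 217 and 388 in piPSCs, led by COL1A2 in PEFs and COL3A1 in piPSCs. POU5F1 was not analysed here. Among other pluripotency markers, NANOG had at most 1 fragment in every library, EPCAM at most 1 and CDH1 at most 7 in the piPSC libraries, while SOX2, which was also supplied by the vector, stood at 3.01, 2.49 and 0.129 FPKM in piPSC5, piPSC7 and piPSC8. Fragments of the vector or of the mouse feeders cannot be told apart from porcine ones here, and in such bulk samples fewer cells of a type cannot be told apart from less RNA per cell.

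In the embryo, the neural plate gives rise to progenitors that line the neural tube, and these divide as radial glia before they give rise to neurons. PAX6, OTX2 and ZIC2 are transcription factors of that early neural tissue, with PAX6 also acting in eye and forebrain progenitors and ZIC2 in the closing of the tube. NES (nestin) and FABP7, a brain fatty acid-binding protein, are used as markers of progenitors and radial glia. TUBB3, a beta tubulin, and DCX, which binds microtubules, mark young neurons. NCAM1, a cell adhesion molecule, and GPM6A, a membrane glycoprotein of the growth cone, sit on the neuronal surface, and SATB1 is a chromatin organizer used by T cells as well as by some neurons. Several of these genes are also active outside the nervous system.

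The sequences before the start of some members are shown first, so that their CG content can be compared. They are those of GPM6A, FABP7 and ZIC2, whose groups did not overlap, and of NES, whose groups did. ZIC5, the neighbour of ZIC2, is shown with them. For each gene, the RefSeq transcript start on Sscrofa11.1 nearest to the start in the expression table was used, and such a start was found for 9 members, TUBB3 being the one without. In the 250 bases upstream, shown 5′ to 3′ on the strand of the gene, capitals mark CG pairs.
GPM6A (chr15:38410758-38411007, minus strand): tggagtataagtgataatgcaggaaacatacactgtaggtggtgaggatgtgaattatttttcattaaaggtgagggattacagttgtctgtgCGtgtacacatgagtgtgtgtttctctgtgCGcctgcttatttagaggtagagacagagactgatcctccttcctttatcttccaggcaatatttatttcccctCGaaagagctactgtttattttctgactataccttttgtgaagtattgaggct
FABP7 (chr1:39876273-39876522, minus strand): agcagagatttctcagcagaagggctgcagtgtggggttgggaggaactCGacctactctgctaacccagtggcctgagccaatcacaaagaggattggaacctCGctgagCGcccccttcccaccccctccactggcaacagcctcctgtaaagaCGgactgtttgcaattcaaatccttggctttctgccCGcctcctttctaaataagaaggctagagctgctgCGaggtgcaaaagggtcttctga
ZIC2 (chr11:68840552-68840801, plus strand): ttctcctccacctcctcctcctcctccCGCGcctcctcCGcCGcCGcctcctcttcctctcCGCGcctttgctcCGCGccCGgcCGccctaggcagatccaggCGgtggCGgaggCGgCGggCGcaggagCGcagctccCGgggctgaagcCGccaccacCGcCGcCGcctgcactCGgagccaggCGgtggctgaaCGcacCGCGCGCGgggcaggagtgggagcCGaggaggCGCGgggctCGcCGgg
ZIC5 (chr11:68830473-68830722, minus strand): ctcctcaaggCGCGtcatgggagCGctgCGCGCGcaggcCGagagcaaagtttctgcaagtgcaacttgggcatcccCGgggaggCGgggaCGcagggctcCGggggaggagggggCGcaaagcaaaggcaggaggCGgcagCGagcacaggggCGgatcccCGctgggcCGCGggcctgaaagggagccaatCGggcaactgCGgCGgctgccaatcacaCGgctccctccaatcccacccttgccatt
NES (chr4:93412410-93412659, plus strand): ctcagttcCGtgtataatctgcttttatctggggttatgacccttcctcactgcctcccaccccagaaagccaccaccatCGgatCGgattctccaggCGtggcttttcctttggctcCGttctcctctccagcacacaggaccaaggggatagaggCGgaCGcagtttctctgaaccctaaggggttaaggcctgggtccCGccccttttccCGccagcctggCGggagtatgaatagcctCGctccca
ZIC2 and its neighbour ZIC5 held 34 and 22 CG pairs, against 3 for GPM6A, 6 for FABP7 and 11 for NES. GPM6A is shown from a start 717 bases from that of the table. The nearest RefSeq starts of SATB1 and NCAM1 lie 17702 and 92627 bases from those of the table, so their windows are not shown and may not be those of the transcripts counted.

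Over the 300 bases from 250 before to 50 after the start, GC content was 40.7% for GPM6A, 53% for FABP7 and 79% for ZIC2, against a median of 62.7% over 13903 genes. Searched on both strands, the octamer ATGCAAAT, the SOX-type motif CATTGTT, the left and right parts of the element bound by the neuronal repressor REST (TTCAGCACC and GGACAGC) and the TATA motif TATAAA had no match in the windows of the 9 members, the distant ones of SATB1 and NCAM1 included. These letters occur in 1.09%, 1.93%, 0.302%, 5.71% and 7.85% of the 13903 windows. CCAAT matched in FABP7, OTX2 and DCX, and in 34.4% of all windows. No match says only that these letters are not in the window.

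GPM6A (ENSSSCG00000023328, chromosome 15 from 38258493 to 38410040), from the proteolipid family of membrane proteins, was the member with the highest mean level in piPSCs. Its level was 0 FPKM in PEF5 and PEF7 and 0.0417 in PEF8, where 2 fragments were counted. In piPSC5, piPSC7 and piPSC8 it was 48.4, 68.5 and 75.3 FPKM, from 2303, 2579 and 2622 fragments. All piPSC libraries were thus high and all PEF libraries were at or near 0, and the piPSC lines differed among themselves by 1.56-fold. Taken against a floor of 3 fragments in each PEF library, the mean of the piPSCs was at least 1114-fold higher, and still at least 1017-fold when piPSC8 was left out. By mean level the gene stood above 95.8% of all genes of the table in piPSCs and above 11% in PEFs.

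SATB1 (ENSSSCG00000011201, chromosome 13 from 5317829 to 5392984) had 0.132, 0 and 0.248 FPKM in PEF5, PEF7 and PEF8, from at most 8 fragments. It had 49.8 and 67.4 FPKM in piPSC5 and piPSC7 and 17 in piPSC8. The groups did not overlap, and piPSC8 was the low library, 3.96-fold under piPSC7. The ratio of the group means was 353-fold and rests on few PEF fragments, being 236-fold without PEF7, 679-fold without PEF8 and 890-fold without line 8.

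ZIC2 (ENSSSCG00000009520, chromosome 11 from 68840830 to 68846470) was lower in level but had the same order of piPSC lines as SATB1. The PEF values were 0.0304, 0.146 and 0.0715 FPKM, and those of piPSC5, piPSC7 and piPSC8 were 3.51, 7.81 and 1.82. The lowest piPSC library lay above the highest PEF library, and the means differed by 53-fold. Leaving out piPSC7 lowered this to 32.3-fold and leaving out PEF7 raised it to 86-fold.

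FABP7 (ENSSSCG00000004234, chromosome 1 from 39871298 to 39876298) had 0 fragments in all PEF libraries, which allows up to 3 in each. In piPSC5 and piPSC8 it had 2.07 and 2.45 FPKM, from 68 and 59 fragments, but only 0.231 FPKM from 6 fragments in piPSC7. The groups did not overlap, yet piPSC7 stood apart from the other piPSC lines by 10.6-fold between highest and lowest. The piPSC mean was at least 19-fold above the floor, and at least 13.8-fold without piPSC8.

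NCAM1 (ENSSSCG00000015045, chromosome 9 from 40721255 to 40960966) went the other way. Its PEF values were 0.649, 1.15 and 0.468 FPKM, from 116, 192 and 71 fragments. In the piPSC libraries it had 0.0464, 0.0252 and 0 FPKM, from 7, 3 and 0 fragments. All piPSC libraries lay below all PEF libraries, with means 31.6-fold apart, between 21.1-fold without piPSC8 and 59.9-fold without piPSC5.

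NES (ENSSSCG00000006474, chromosome 4 from 93412557 to 93423128) had 14.5, 0.969 and 5.73 FPKM in PEF5, PEF7 and PEF8. It had 4.25, 0.9 and 0.368 FPKM in piPSC5, piPSC7 and piPSC8. Each piPSC line was below its own PEF line, but by only 0.05 on the log2(FPKM + 1) scale in line 7, and the groups overlapped. VIM, the vimentin with which nestin assembles, was lower in every piPSC library than in every PEF library. COL1A1, a main collagen of fibroblasts, stood at 58.4 FPKM in piPSC5 against 4.01 in piPSC7 and 2.27 in piPSC8, the same order of lines as NES, while the whole fibroblast list summed to 385, 217 and 388 FPKM in these lines. Their part in the NES values was not tested.

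PAX6 (ENSSSCG00000013320, chromosome 2 from 28973472 to 29001265) was present in the fibroblasts. The PEF values were 3.12, 5.2 and 0.813 FPKM and the piPSC values were 0.802, 5 and 1.05. Line 7 was highest in both groups, and the groups overlapped. The mean difference of -0.35 (log2 of FPKM + 1) turned to 0.0404 without PEF7.

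TUBB3 (ENSSSCG00000002639, chromosome 6 from 168452 to 178462) was abundant in both groups, above 83.2% of genes in PEFs and above 89.8% in piPSCs. It had 20.2, 9.79 and 24.6 FPKM in PEF5, PEF7 and PEF8, and 20.3, 58.8 and 10.5 in piPSC5, piPSC7 and piPSC8. The library piPSC7 was the high one and piPSC8 among the low ones. Against its own PEF line, log2(FPKM + 1) differed by 2.47 in piPSC7, 0.01 in piPSC5 and -1.16 in piPSC8. The mean difference of 0.44 became -0.20 without piPSC7. TUBB3 lies 0.992 kb from DEF8 in the table, which was lower in piPSCs (-1.79 ± 0.246 on the log2 scale, limma adjusted p = 0.00179).

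DCX (ENSSSCG00000012585, chromosome X from 91323817 to 91444294) had between 2 and 9 fragments in each library. Its values were 0.106, 0.0322 and 0.0355 FPKM in PEFs and 0.161, 0.136 and 0.0977 in piPSCs, so that PEF5 lay among the piPSC libraries. OTX2 (chromosome 1 from 186027585 to 186038340) had 0 fragments in the PEF libraries and 3, 3 and 0 in piPSC5, piPSC7 and piPSC8. Both groups of OTX2 were at or under the floor of 3 fragments, so no fold is given, and a difference was not detectable at this depth.

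**Figure D1:**
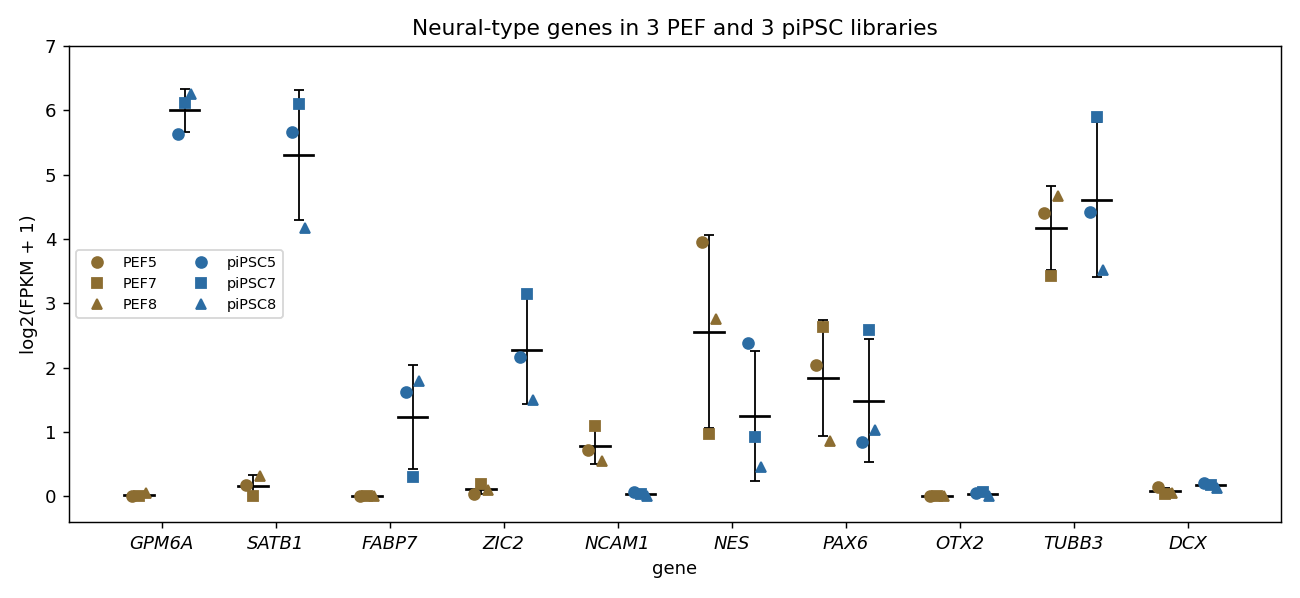
Level of each member as log2(FPKM + 1), in brown for PEF and in blue for piPSC libraries, with circles for line 5, squares for line 7 and triangles for line 8. Black bars give the mean and SD of the 3 libraries of a group. GPM6A stands at between 48.4 and 75.3 FPKM in the piPSC libraries and at most 0.0417 FPKM in the PEF libraries, whereas NES, PAX6 and TUBB3 overlap.

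Over the 10 members, the groups did not overlap for GPM6A, SATB1, FABP7 and ZIC2, higher in piPSCs, and for NCAM1, lower in piPSCs. Of the 12428 genes whose FPKM averaged 0.5 or more, 37.3% were higher without overlap and 26.8% lower without overlap, and since the members were chosen on this contrast nothing is read from their count. At the 2-fold level in every line, on the scale of FPKM + 1, 3 members were higher (12.8% of those 12428 genes) and 0 were lower (11.9%). Just inside that threshold was ZIC2, with a smallest line difference of 1.40 on the log2 scale, and just outside it FABP7, with 0.30. The filter on the mean was passed by 7 members, not by NCAM1, OTX2 and DCX. The highest piPSC line was not the same for all members: piPSC7 was highest for 5 members, piPSC5 for 3 and piPSC8 for 2. Without line 8, GPM6A, SATB1, FABP7 and ZIC2 were higher in both remaining lines, and NCAM1, NES and PAX6 lower in both. TUBB3 was higher in both, by as little as 0.01 on the log2 scale in line 5. OTX2 and DCX were too close to 0 for a difference to be seen.

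**Figure D2:**
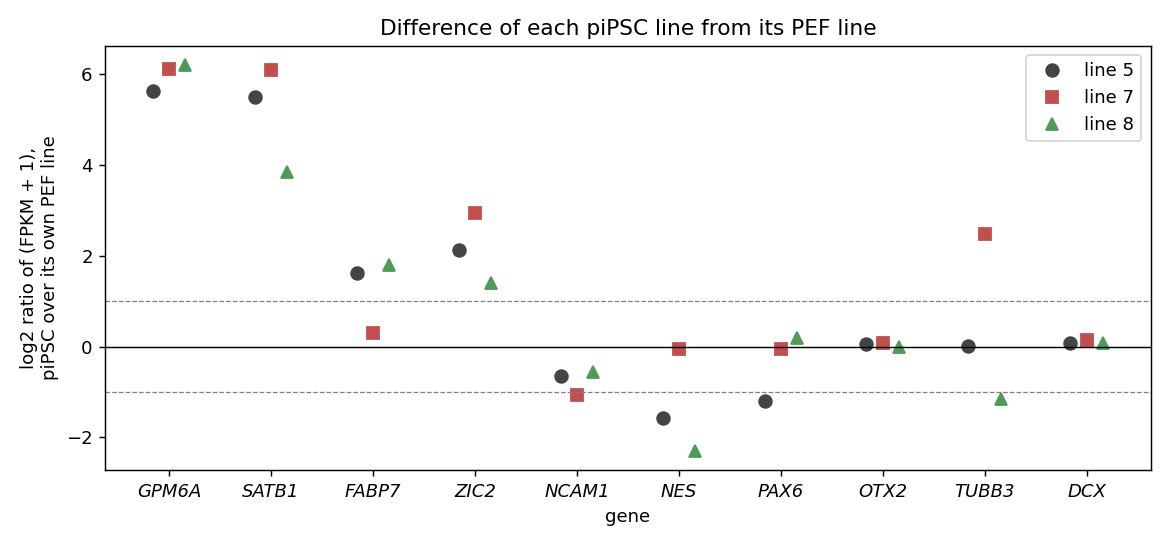
Difference of each piPSC line from the PEF line it was made from, as the log2 ratio of (FPKM + 1), with dashed lines at 2-fold. The 3 lines lie close together for GPM6A, between 5.63 and 6.19, and on both sides of 0 for TUBB3, between -1.16 and 2.47.

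The close relatives of the members were not used to choose them, but their lists were drawn up with earlier results of these data known. Their counts are therefore a description. Those that averaged 0.5 FPKM or more were compared between the groups with limma on log2(FPKM + 1), with Benjamini-Hochberg adjustment over all tested genes. Genes such as NCAM2, OTX1 and ZIC5 reached that average only through their piPSC values, and PAX1 only through its PEF values. To be called, a gene had to change 2-fold or more with an adjusted p below 0.05, which 20.2% of all tested genes met as higher and 16.7% as lower in piPSCs. Of 36 relatives in the table, 19 were tested, 8 were called higher and 2 lower. Their median log2 fold change was 1.13, beside 0.20 for all tested genes. A rescaling to the median ratio took the median over all genes to -0.00657, and one to equal sums to -0.0604.

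NCAM2 (ENSSSCG00000012020), the sister molecule of NCAM1 in cell adhesion, rose where NCAM1 was low. Its PEF values were 0, 0.116 and 0 FPKM and its piPSC values 18.1, 17.3 and 8.68, which makes a rise of 3.86 ± 0.305 on the log2 scale (SE, limma adjusted p = 0.000343). Every piPSC library of NCAM2 was above every PEF library of either gene. OTX1, the sister of OTX2, had 0 fragments in all PEF libraries and 7.41, 3.3 and 2.29 FPKM in piPSC5, piPSC7 and piPSC8. It rose by 2.30 ± 0.368 (log2, SE, limma adjusted p = 0.00306), and its mean was at least 78.4-fold over the floor, or 50.5-fold without piPSC5.

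ZIC5, which lies 10.5 kb from ZIC2 and is transcribed away from it, had 0 fragments in all PEF libraries. It stood at 10.3, 10.4 and 3.41 FPKM in piPSC5, piPSC7 and piPSC8, above ZIC2 in each of these libraries. ZIC5 rose by 3.05 ± 0.4 (log2, SE, limma adjusted p = 0.00149) and was at least 287-fold over the floor, and piPSC8 was the low line for both ZIC2 and ZIC5. PCCA, an enzyme subunit of propionate breakdown on the other side of ZIC2 at 74.4 kb, rose as well, by 1.61 ± 0.241 (limma adjusted p = 0.00243). ZIC1 was called neither way (1.24 ± 0.519, limma adjusted p = 0.0842), with 1.82, 0.116 and 3.78 FPKM in piPSC5, piPSC7 and piPSC8, and passed at an adjusted p of 0.00744 without piPSC7. Of the 20 nearest protein-coding genes on either side of the members, 13 were tested, 3 were called higher and 2 lower, CRABP2 next to NES and DEF8 next to TUBB3 being the lower ones. The call of CRABP2 was lost without line 8 (limma adjusted p = 0.0718).

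FABP5, the fatty acid-binding protein of skin and other epithelia, rose by 3.13 ± 0.649 (log2, SE, limma adjusted p = 0.00807). It had 3.04, 2.88 and 18.9 FPKM in PEFs and 55.1, 43.6 and 81.8 in piPSCs, far above FABP7 in every library. FABP3, the form of heart muscle, had a log2 difference of 0.34 ± 0.412 (limma adjusted p = 0.509), which became -0.063 without line 8.

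The microtubule-binding kinases DCLK1 and DCLK2 are related to DCX, and both were called higher although DCX had next to no fragments. DCLK1 had between 0.452 and 0.544 FPKM in PEFs and 18, 37.6 and 1.15 in piPSC5, piPSC7 and piPSC8 (2.96 ± 0.99, limma adjusted p = 0.0432). Its call was lost without any one of PEF5, PEF7, PEF8, piPSC5 or piPSC7, at an adjusted p between 0.0983 and 0.125. DCLK2 was steadier, with 6.95, 7.78 and 3.24 FPKM in the piPSC libraries against 1.18 to 1.51 in PEFs (1.53 ± 0.314, limma adjusted p = 0.00768).

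PAX9, a factor of the pharyngeal pouches and teeth, rose from between 0.0568 and 1.53 FPKM to 3.53, 15.8 and 4.77 in piPSC5, piPSC7 and piPSC8 (limma adjusted p = 0.0171). Line 7 was thus highest for PAX9 as it was for PAX6, and the call of PAX9 was lost without PEF8 (adjusted p = 0.053) or line 8 (0.0549). PAX1 had a log2 difference of -0.69 ± 0.538 (limma adjusted p = 0.314). PAX2, PAX3, PAX7 and the proteolipid gene GPM6B were under the filter, with GPM6B at 0 fragments in all piPSC libraries. The beta tubulin TUBB6 fell by 3.00 on the log2 scale (limma adjusted p = 0.00038), from between 20.9 and 34.9 FPKM to between 1.88 and 2.68. TUBB (0.95 ± 0.293, adjusted p = 0.0333) and TUBB1 (0.68 ± 0.22, adjusted p = 0.0388) passed limma's test below 2-fold, while TUBB2B (-0.99 ± 0.447, adjusted p = 0.103) and TUBB4A (-1.14 ± 0.567, adjusted p = 0.134) did not pass. Among intermediate filaments, VIM fell by 3.42 on the log2 scale (limma adjusted p = 0.00331), SYNM had -0.47 ± 0.496 (adjusted p = 0.453) and DES, the filament of muscle, 1.73 ± 0.861 (adjusted p = 0.133). DES passed at an adjusted p of 0.0255 without piPSC5.

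**Figure D3:**
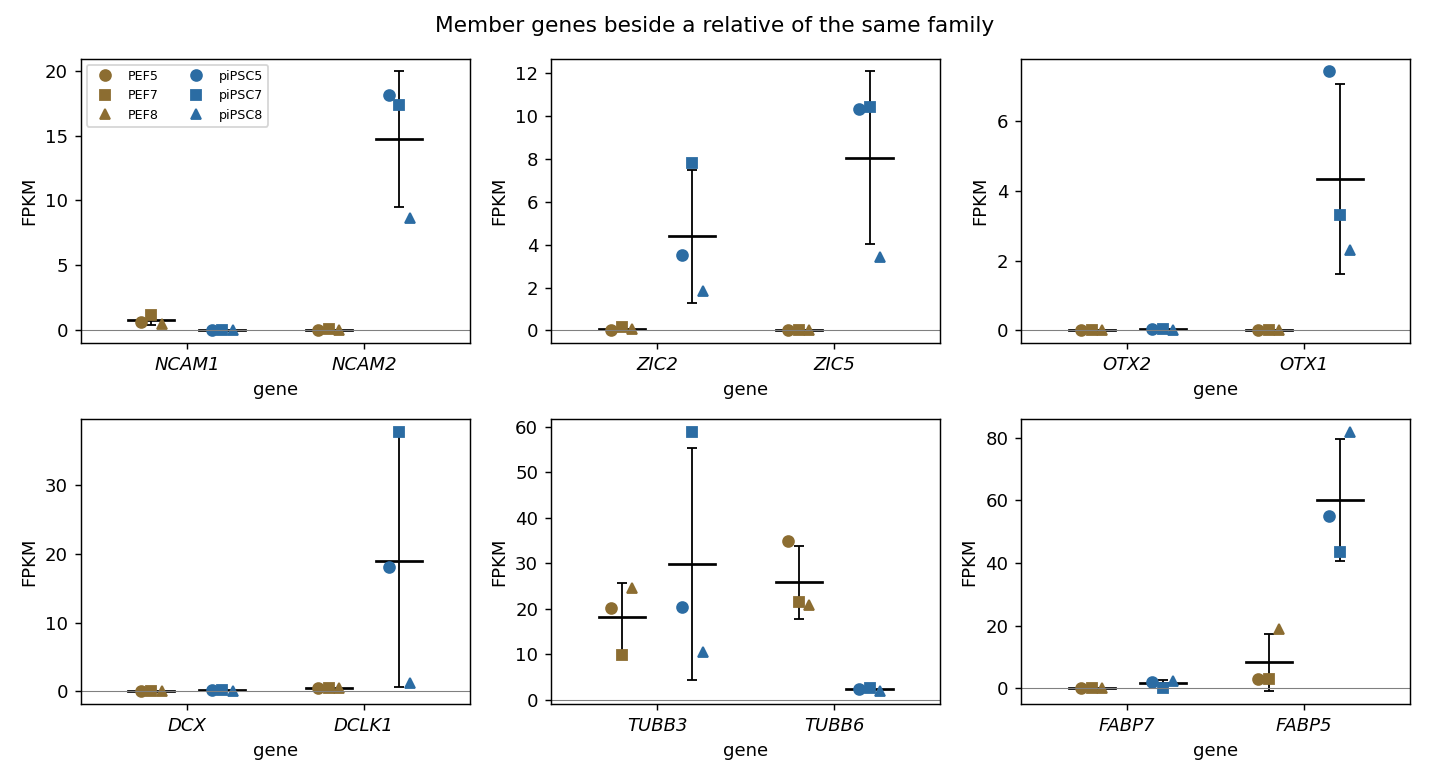
FPKM of 6 members beside a relative of the same family, each panel on its own scale, with brown for PEF and blue for piPSC libraries and circles, squares and triangles for lines 5, 7 and 8. Black bars give the mean and SD of 3 libraries. NCAM2 reaches between 8.68 and 18.1 FPKM in piPSCs while NCAM1 is at most 0.0464, and OTX1 reaches 7.41 while OTX2 is at most 0.0544.

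To set the members in a wider frame, 7 lists of other neural genes were counted, with the members left out and each gene counted once in the total. Of 181 such genes in the table, 92 were tested, 23 were called higher (25%) and 11 lower (12%). Over all tested genes the shares were 20.2% and 16.7%, so the neural genes lay a little over the background upwards and a little under it downwards. These lists are not independent of the relatives above. NCAM2, OTX1, ZIC5, DCLK1 and DCLK2 are among the neural genes called higher, and VIM is among those called lower. The lists were also chosen with earlier results of these data known, so the small differences in share are a description. Here too, genes such as OTX1 and ZIC5 passed the filter only through their piPSC values, and SOX9, called lower, only through its PEF values. The median log2 fold change of the neural genes was 0.38, beside 0.20 over all tested genes. A scaling to equal sums moved the neural counts to 21 higher and 16 lower, and those of all genes from 2505 higher and 2070 lower to 1986 higher (16%) and 2815 lower (22.7%). The median ratio gave 20 neural genes higher and 13 lower, with 15.1% and 20.2% of all genes. Without line 8, 27 neural genes were called higher and 12 lower, with 20.1% and 15.8% of all genes.

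Neural plate and progenitor factors held the highest share of genes called higher, 6 of 16 tested (37.5%), with 2 called lower. ZIC5 was among the large increases, and EMX2 and IRX3, factors that pattern cortex and neural tube, fell (log2 fold changes -2.70 and -1.84, limma adjusted p = 0.00392 and 0.00631). Without PEF8 the list had 4 genes called lower. SOX21, a SOX factor of progenitors named after its values were seen, had 0 fragments in PEFs and 20.9, 26.1 and 0.109 FPKM in piPSC5, piPSC7 and piPSC8. It did not pass limma's test with line 8 (adjusted p = 0.0619) and passed without that line (4.61, adjusted p = 0.00113).

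Of the radial glia genes, 2 of 14 were called higher and 6 lower (42.9%), with a median log2 fold change of -0.25. CDH2, the N-cadherin of neuroepithelium and heart, rose by 4.19 ± 0.47 (log2, SE, limma adjusted p = 0.0009), to between 65.8 and 75.5 FPKM in the piPSC libraries, and SLC1A3, a glutamate transporter, rose by 1.47 ± 0.351 (limma adjusted p = 0.0136). The call of SLC1A3 was lost without line 8 (adjusted p = 0.0566). TNC and VIM, matrix and filament genes that fibroblasts also use, fell (log2 fold changes -5.55 and -3.42, limma adjusted p = 0.00614 and 0.00331). The 14 fibroblast markers, 13 of them called lower, moved with these genes, and their part in the count was not tested.

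Of the proneural and neuronal factors, 2 of 11 were called higher (18.2%) and 0 lower. NEUROG2, which starts neuron formation, had 27.5, 36.4 and 1.33 FPKM in piPSC5, piPSC7 and piPSC8 and at most 0.242 in PEFs (3.62 ± 1.01, limma adjusted p = 0.0231). Its call was lost without PEF5, PEF7, PEF8, piPSC5 or piPSC7, at an adjusted p between 0.0556 and 0.0766. BCL11A, a zinc finger factor of neurons and blood, rose by 2.28 ± 0.462 (adjusted p = 0.00732). The count of this list ran from 1, without PEF5, PEF7, PEF8 or piPSC5, to 4 without line 8, and 1 gene was called lower without piPSC5 or with the line as a block.

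Of the neuronal cytoskeleton and growth cone genes, 4 of 16 were called higher (25%) and 1 lower. KIF5C, a kinesin motor of axons, had 0.0788, 0.0673 and 0.279 FPKM in PEFs and 45.2, 65.6 and 13.2 in piPSCs, and rose by 4.95 ± 0.55 (log2, SE, limma adjusted p = 0.000877). DCLK1 was the other large increase, and CRMP1, which acts in axon guidance, fell by 2.12 on the log2 scale (adjusted p = 0.00101). The count of higher genes was 2 without PEF7 or PEF8, and that of lower genes 3 without piPSC7 and 2 with the line as a block.

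Neural adhesion and membrane proteins had 4 of 15 called higher (26.7%) and 0 lower, led by NCAM2 and by ROBO2, an axon guidance receptor that rose by 2.96 ± 0.32 (limma adjusted p = 0.00081). Without PEF8 or without line 8, 1 gene of the list was called lower. Synaptic proteins and channels had 4 of 14 called higher (28.6%) and 0 lower. NLGN1, a neuroligin, rose by 2.62 ± 0.271 (limma adjusted p = 0.000728). The synaptic count was 2 when any one of PEF5, PEF7, PEF8, piPSC5 or piPSC7 was left out, and 1 gene was called lower without PEF7, PEF8 or piPSC7.

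Mature glia genes had 1 of 6 called higher, CNP, an enzyme of myelin-forming cells, at 1.01 ± 0.166 (limma adjusted p = 0.00334), and 2 lower. The fold of CNP dropped under 2 without PEF7, piPSC5 or piPSC8. Its call was also lost when rescaled to the median ratio or to equal sums, and with quantile normalization. GJA1, the connexin of astrocytes and fibroblasts, and CD9, a tetraspanin, were the lower ones (log2 fold changes -3.09 and -2.90, limma adjusted p = 0.000933 and 0.0401). The call of CD9 was lost without PEF5, PEF7, PEF8 or piPSC5, at an adjusted p between 0.0563 and 0.121, and without line 8 (0.0621).

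**Figure D4:**
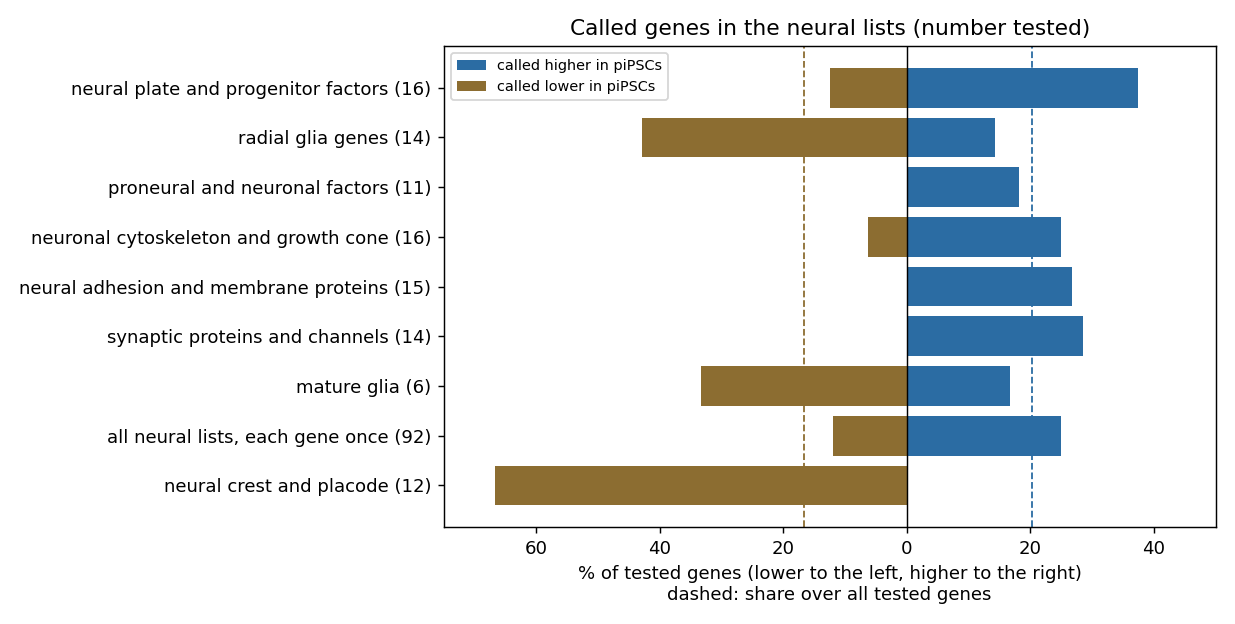
Share of tested genes called higher (blue, to the right) and lower (brown, to the left) in piPSCs for each neural list without the members, for their total and for neural crest and placode genes, with the number tested in brackets. Dashed lines mark the shares over all tested genes, 20.2% and 16.7%; radial glia and neural crest genes reach 42.9% and 66.7% called lower.

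Neurons and progenitors were also looked for by markers. The 10 neuron markers, TUBB3 and DCX among them, summed to between 12.1 and 37.9 FPKM in PEFs and to between 15.4 and 64.3 in piPSCs, with TUBB3 the most abundant in both groups. RBFOX3, a marker of mature neurons, had 48, 31 and 23 fragments in PEF5, PEF7 and PEF8 and at most 3 in every piPSC library. ELAVL4 of the same list went the other way and was called higher (1.11 ± 0.384, limma adjusted p = 0.0486). That call was lost without PEF7, PEF8, piPSC5 or piPSC8, at an adjusted p between 0.0736 and 0.14. It was also lost when rescaled to the median ratio or to equal sums, without the filter, with voom on fragments and without line 8. The neural progenitor markers, 8 of 10 in the table, summed to between 6.31 and 17.9 FPKM in PEFs and to between 16.9 and 43.6 in piPSCs, with NES the most abundant in PEFs. Among the piPSC lines, piPSC7 was highest for the neuron markers and lowest for the progenitor markers.

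Terms that the table itself gives to each gene were counted as well, and these were chosen after values of the data were seen. Of 12 nervous system terms, 1 had a higher share called up than all genes, forebrain development with 10 of 32 tested genes (31.2%) and 2 lower. In the other 11 the share was between 3.23% and 19.4%. For nervous system development 22 of 150 tested genes were called higher and 36 lower, and for synapse 9 of 103 higher and 25 lower (24.3%).

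Genes of the REST complex, which keeps neuronal genes silent in other cells, were counted as 2 of 10 called higher and 1 lower. REST itself had 3.88, 2.7 and 3.13 FPKM in PEFs and 2.03, 1.98 and 2.17 in piPSCs, a difference of -0.46 ± 0.201 (limma adjusted p = 0.0957). RCOR2, a corepressor, and HDAC2, a deacetylase, rose by 1.90 ± 0.345 (adjusted p = 0.00486) and 1.85 ± 0.173 (adjusted p = 0.000517). CTDSP1, a phosphatase that works with REST, was called lower (-1.05 ± 0.348, adjusted p = 0.0418), a call lost without PEF5, PEF7, PEF8, piPSC7 or piPSC8, at an adjusted p between 0.0604 and 0.125, and without line 8 (0.0542).

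Other embryonic lists were set beside the neural ones. Neural crest and placode genes had 0 of 12 called higher and 8 lower (66.7%), led by ETS1 and MSX1, which both fell (log2 fold changes -3.28 and -2.56, limma adjusted p = 0.000831 and 0.0034). Primed epiblast genes had 3 of 12 called higher, CDH2 and ZIC5 leading, and 1 lower, FGF2, whose call (adjusted p = 0.0492) was lost without PEF7, PEF8, piPSC5, piPSC7 or piPSC8, without line 8 (0.0862) and with the line as a block (0.0724). Without single libraries its adjusted p ran from 0.048 to 0.119, the lower end with a change under 2-fold. Pluripotency genes had 0 of 7 called higher and 2 lower, TBX3 (-3.06 ± 0.694, adjusted p = 0.0112) and KLF4 (-1.71 ± 0.441, adjusted p = 0.0177), the latter lost without PEF7 or PEF8, at an adjusted p of up to 0.0601. Genes of primitive streak and mesoderm had 1 of 8 called higher, the heart and limb factor HAND2 (4.22 ± 0.256, adjusted p = 0.000179), and 5 lower, with PDGFRA and FOXF1 first. In the endoderm list FOXA1 rose by 2.71 ± 0.523 (adjusted p = 0.00611), 1 of 2 tested. The trophoblast list had TEAD4 called higher (2.70 ± 0.287, adjusted p = 0.000788) and 6 of 7 genes lower, PGF and GATA2 most.

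Genes whose profile over the 6 libraries was most like that of a member were found by the root mean square distance of log2(FPKM + 1) after subtraction of each gene's mean, for the 7 members that passed the filter and against 11131 other named genes. For SATB1 the nearest gene was KIF5C, at a distance of 0.14 (r = 0.999), and the next NUP210 at 0.36. For FABP7 they were LMO3 at 0.03 and ERBB4 at 0.04, which like FABP7 were at 0 in PEF5 and PEF7. GPM6A was nearest to TPD52L1 (0.37) and CP (0.43), ZIC2 to NRG3 (0.14) and MPP7 (0.15), and TUBB3 to CPM (0.17) and ARHGAP8 (0.18). PAX6 was nearest to EFNA1 (0.24) and TNFAIP8 (0.25), and NES, which had no close match, to ARHGAP28 (0.62) and IL1RL1 (0.63). These points share 6 libraries in 2 groups, and the distances are a description.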

How the data were processed

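RNA-seq values of 3 PEF and 3 piPSC libraries were used. The authors deposited FPKM values per gene, with paired reads of 150 bp from poly-A libraries. The submitters' processing notes name HISAT2 2.1.0, Bowtie2 2.2.3, HTSeq 0.6.0 and Sscrofa11.1. The handling of reads shared between genes or strands is not given in the sources used here, so close copies such as the beta tubulins are uncertain.

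The members and gene lists were chosen with earlier results of these data known. Every FPKM value was a whole multiple of 1 fragment, given a gene length and a library total. For each gene the shortest such length was taken, which gave whole fragments for all 18007 genes (100%). Where the true counts of a gene share a common factor, the fragments given here can be too low. On simulated data 494 of 500 genes came back exactly. A count of 0 allows up to 3 fragments, for counting error only. Of 3375 genes listed by identifier, 875 were named through a table of identifiers. Alternatives were other scalings, filters and pseudocounts, no variance trend, voom on fragments, the line as a block, and leaving out line 8 or each library.

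The groups were compared with limma 3.58.1 in R 4.3.3 (lmFit, eBayes with a trend) on log2(FPKM + 1). This covered the 12428 genes that averaged 0.5 FPKM or more. The main fit was unpaired, like the t test in the study's statistics section. For its RNA-seq, however, the study compared each piPSC line with its own PEF line and took the overlap. Tests were two-sided and adjusted by Benjamini-Hochberg, and calls needed a 2-fold change and an adjusted p below 0.05. Fold changes on this scale understate those of low genes. Tested on simulated data for this comparison with 12308 genes, 167 of 200 changed genes (83.5%) and 12 others were called. For a single gene, the smallest p of an exact permutation test here is 0.1. The study describes piPSCs and PEFs of equal number as genetically matched, so lines are paired, and after subtraction of group means same-numbered libraries correlated at 0.0921, 0.0946 and 0.08, against -0.121 to 0.0553 for the others. As libraries were single cultures, p-values measure the spread between lines.

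Genes named were all members, tested relatives in their families, the 2 largest called increases and decreases of each list, the 2 nearest profiles, and the most abundant cell type markers. SOX21, PCCA, DEF8, CRABP2, REST, RBFOX3 and COL1A1 were named after their values were seen. Promoter windows came from RefSeq on Sscrofa11.1 with pysam 0.24.0. The melanocyte, Schwann cell, keratinocyte, chondrocyte, endothelial, blood and epithelial markers were summed as checks. Some genes that this rule takes in are not reported here.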

Additional observations from a re-analysis of the deposited data

Results flagged for a closer look

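TUBB3 was singled out because its lines moved in opposite directions by at least 2-fold. The log2 difference between a piPSC line and its own PEF line was 2.47 in line 7 and -1.16 in line 8, with 0.00926 in line 5. This difference between the lines was not tested, since each line had 1 library per state. Groups of 3 libraries are too small for the search for single outlying libraries, so none was made.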

How the results depend on the processing

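The counts over all genes stayed within 1.5 times of the values given under all 16 alternatives, from 1879 to 2947 genes higher and from 1836 to 2815 lower, and so did those of the neural lists, from 16 to 27 higher and from 8 to 16 lower. Leaving out 1 library each gave between 2217 and 2641 genes higher and between 1836 and 2075 lower, and 16 to 25 neural genes higher and 8 to 15 lower. A rescaling to the median ratio gave 1879 genes higher and 2511 lower. The paired fit, which took line as replicate block, gave 2462 and 2023 genes in all and 23 and 13 neural genes; among the named genes it ended only the calls of CLDN6 and FGF2. Signs turned for FABP3 without line 8 (-0.063) and for 2 members when 1 library was left out, PAX6 without PEF7, with a range from -0.90 to 0.0404, and TUBB3 without piPSC7, with a range from -0.20 to 0.99. With Pearson correlation in place of distance, 3 of the 14 nearest genes were shared, so the nearest genes depend on the measure. Of the values of named genes, 91 of the tried ones lost the call and 15 gained it, against 911 that stayed on their side. The calls of CD9, CTDSP1, DCLK1, ELAVL4, FGF2 and SOX9 were lost without the filter on the mean. With voom on fragments, those of CD9, CRABP2, DCLK1, ELAVL4 and FGF2 were lost. Quantile normalization ended those of CNP and SOX9. Member differences moved by more than the spread of the libraries in 18 values, all with a pseudocount of 0.1, voom on fragments or equal sums, and the cause was not tested. At these depths, OTX2 and DCX are too close to 0 for a difference to be seen.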

Other observations

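Of the 23 neural genes called higher, 12 had their lowest piPSC value in piPSC8, 8 in piPSC7 and 3 in piPSC5. Among all 2505 genes called higher, 710 were lowest in piPSC8, 1226 in piPSC7 and 569 in piPSC5. SATB1 and ZIC2 are among the genes that were lowest in piPSC8, and GPM6A and FABP7 were highest there.

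Markers of other cell types were summed as well. The 8 melanocyte markers summed to between 10.6 and 29.6 FPKM in PEFs, led by MLANA, and to between 4.16 and 5.06 in piPSCs, led by MITF. Schwann cell markers summed to between 22.4 and 37.4 FPKM in PEFs, led by PMP22, and to between 3.01 and 16.8 in piPSCs, led by EGR2. PMP22 alone averaged 27.8 FPKM in PEFs. Of the 3 tested markers, PMP22 was called lower (-4.43 ± 0.288, limma adjusted p = 0.000217) and EGR2 higher (1.995 ± 0.553, limma adjusted p = 0.0228). The call of EGR2 was lost without PEF5, PEF8 or piPSC5. Chondrocyte markers went from between 6.51 and 30 FPKM to between 31.6 and 75.6, with COL11A1 the most abundant in both groups. COL11A1 alone averaged 13.4 FPKM in PEFs and 57.6 in piPSCs. The other markers did not all rise: 3 of the 8 had at most 3 fragments in every piPSC library. SOX9 was called lower (-1.51 ± 0.47, limma adjusted p = 0.0342), a call lost without PEF5, PEF7, piPSC5, piPSC7 or piPSC8. Keratinocyte markers, led by KRT10, reached at most 9.18 FPKM in any library, and endothelial markers at most 4.73, led by PECAM1 in PEFs and TEK in piPSCs. Blood cell markers, led by CD14 in PEFs and CD68 in piPSCs, went from between 13.3 and 25.6 FPKM to between 3.99 and 4.51. Epithelial markers, led by CLDN6 in both groups, went from between 11.7 and 37.4 FPKM to between 1.16 and 13.9.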
